A study of Zea mays with 4 samples.

Results

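The genes described here build the starch granule in maize, and they were measured in the female inflorescence, or ear (FI), and in the uppermost stem internode (TI). They are 9 genes chosen by name and gene identifier. The FPKM table held 39179 genes, with 8 of the 9 among them. FPKM is the number of fragments mapped to a gene, scaled by gene length and by the mapped fragments of the library. The 9 genes are the starch synthase genes wx1 (Zm00001d045462), ss1 (Zm00001d045261), su2 (Zm00001d037234) and du1 (Zm00001d000002), the branching enzyme genes ae1 (Zm00001d016684), sbe1 (Zm00001d014844) and sbe2a (Zm00001d003817), the isoamylase gene su1 (Zm00001d049753) and the carrier gene bt1 (Zm00001d015746). The FPKM table had no row for du1, which was analysed by counts alone, and FPKM was analysed for the other 8. Of the 8, 7 had an FPKM above 0 in at least 1 library and 6 had a mean FPKM of at least 1. All plants were of the Puma hybrid, grown in pots in a greenhouse and collected at 60 days after sowing, when flowering begins. The FI were bagged before their silks came out, to keep pollen away. Each tissue had 2 libraries of total RNA, replicates 1 and 2 (here FI1, FI2, TI1 and TI2), called biological replicates in the methods, and the number of plants behind a library is not given in the sources used here. The p-values measure the spread between these libraries.

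Starch is made in plastids from ADP-glucose, which ADP-glucose pyrophosphorylase (AGPase) forms from glucose 1-phosphate and ATP. Soluble starch synthases lengthen the glucose chains, branching enzymes add the side branches of amylopectin, and the isoamylase-type debranching enzyme trims misplaced branches so that the polymer can crystallize, while granule-bound starch synthase makes amylose. In cereals many of these steps have one isoform that works in the endosperm and a relative that works in leaves and other vegetative tissues. The genes wx1, su2, du1, ae1, su1 and bt1 carry the names of kernel mutants (waxy, sugary, dull, amylose extender and brittle) and are counted here as endosperm forms. The vegetative form is sbe2a, the main branching enzyme gene of the leaf, and ss1 and sbe1 are used in both kinds of tissue.

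The steps between the FPKM values of a gene gave the number of fragments behind each value. These were whole for 24149 of 24149 genes above 0 in at least 2 libraries, and the steps implied 4552953 and 4071536 mapped fragments in FI1 and FI2 and 3464635 and 2807120 in TI1 and TI2. The libraries of TI were not alike. Across 19531 genes, Pearson's r of log2(FPKM + 1) was 0.954 between both FI libraries and 0.861 between both TI libraries, while TI2 had r of 0.897 and 0.910 with the FI libraries. Genes are not independent replicates, and these r are given as a description. Among 8 marker gene models of the inflorescence with counts, 4 had a higher CPM (counts scaled to the total of the library) in both FI libraries and 2 in both TI libraries, and their sum was 424 and 378 in FI, 274 in TI1 and 306 in TI2. The floral MADS-box genes zag1 and bde1 had 228 and 121 counts and 143 and 131 counts in FI, 2 and 0 in TI1, but 42 and 48 in TI2. The MADS-box gene zap1 had 250 and 239 counts in FI, 62 in TI1 and 104 in TI2. Those higher in both TI libraries were kn1 and td1. In CPM, kn1 had 8.23 and 5.79 in FI, 24.2 in TI1 and 14.4 in TI2. For td1 the CPM was 77.3 and 44.9 in FI, 159 in TI1 and 83.8 in TI2. All 5 counted genes of the C4 and photosynthesis list were higher in both TI libraries, with a sum of 586 CPM in TI1, 187 in TI2 and 123 and 70.9 in FI. Of the 4 counted secondary-wall genes of the stem, 2 (cesa10 and cesa12) were higher in both FI libraries and 1 (bm1) in both TI libraries, and bm1 alone had 89.1 and 71.4 CPM in TI against 22.2 and 23.6 in FI, of sums of 123 and 117 against 79.8 and 81.6. The part that these differences between the TI libraries have in the results on starch genes was not tested, and the differences on FPKM are therefore also given without each TI library. In whole tissues, fewer cells of a type and less RNA per cell cannot be told apart.

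The granule-bound synthase of the endosperm and the endosperm carrier were at the limit of detection in both tissues. For wx1, which makes the amylose of the kernel, FPKM was 0.0813 in FI1 and 0 in FI2 and in both TI libraries. A gene above 0 in 1 library has no steps, so that its value was taken as 1 fragment, which sets a length of 2701 bases. On that assumption a count of 0, which allows up to 3 fragments, is an FPKM of up to 0.273 in FI2, 0.321 in TI1 and 0.396 in TI2. These limits cover counting error only, and would be lower if the value in FI1 held more fragments. No tissue can be said to hold more wx1 transcript than the other at this depth. The gene bt1, whose product carries ADP-glucose across the plastid envelope of endosperm cells, was listed at an FPKM of 0 in all 4 libraries. That allows up to 3 fragments a library. The 13 names of the endosperm storage list came to 3 gene models with counts, with zp27 and gz27 sharing a gene model. The names gz15, z1a1, z1b1 and z1c1 could not be paired with a gene model, so they were not measured here. The gene models of fl2, o2, zp16, gz16 and gz50 had no counts listed. The zein genes zp15 and zp27 had 0 or 1 counts and 0 to 9 counts in a library, while o7 had 12 and 9 counts in FI against 13 and 13 in TI.

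Low counts were found for du1, which encodes starch synthase III. It had 15 and 9 counts in FI1 and FI2 and 4 and 5 in TI1 and TI2, or 6.17, 4.34, 2.20 and 3.43 CPM. By this measure both FI libraries were the higher, but the counts were below the filter and were not tested in the main comparison. Without a filter on low counts the log2FC, positive where FI is higher, was 0.91 (standard error 0.79) with an FDR of 0.663 in the quasi-likelihood test of edgeR, the tool behind each FDR on counts below.

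The soluble starch synthase genes were expressed in both tissues, with FPKM that did not overlap between the tissues and was the higher in FI. For ss1, the synthase that lengthens the shortest chains of amylopectin, FPKM was 15.03 and 12.8 in FI1 and FI2, 7.85 in TI1 and 10.9 in TI2. Both values of TI were below those of FI, and TI1 was the lowest library. FI averaged 13.9 ± 1.57 and TI 9.38 ± 2.17 (SD, n = 2). These values rest on 458, 349, 182 and 205 fragments. Taken from log2(FPKM + 1), which understates changes at low FPKM, the log2FC was 0.54 ± 0.26 (SE, limma FDR = 0.310), 0.32 without TI1 and 0.75 without TI2. For su2, which encodes starch synthase IIa, FPKM was 9.70 and 9.78 in FI against 6.56 and 7.98 in TI. The FI libraries differed by little and the TI libraries lay below both. FI averaged 9.74 ± 0.0556 and TI 7.27 ± 1.00 (SD, n = 2), from 132, 119, 68 and 67 fragments. The log2FC was 0.38 ± 0.21 (SE, limma FDR = 0.354), 0.26 without TI1 and 0.51 without TI2.

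**Figure D1:**
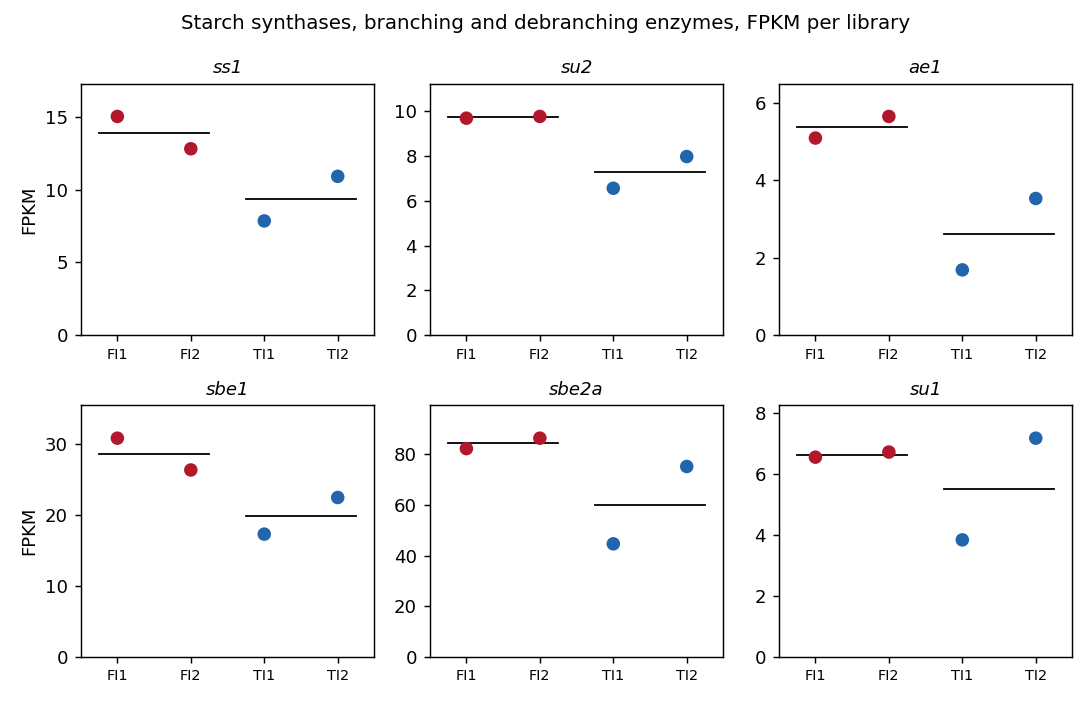
FPKM of the 6 genes whose FPKM averaged 1 or more (vertical axis, linear, from 0; the scale differs between panels) in each library (horizontal axis; red, FI; blue, TI), with a black line at the mean of the 2 libraries of a tissue. TI1 was the lowest library in 6 of 6 genes, and su1 is the gene in which TI2 lay above both FI libraries.

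On FPKM, branching enzyme genes held most of the transcript of the group, and the vegetative form was far above the endosperm form in every library. The leaf-type gene sbe2a had an FPKM of 82.3 and 86.4 in FI, 44.6 in TI1 and 75.2 in TI2. Both TI libraries were below both FI libraries, but TI2 was much nearer to FI than to TI1. FI averaged 84.3 ± 2.91 and TI 59.9 ± 21.6 (SD, n = 2), from 2099, 1971, 867 and 1183 fragments. The log2FC was 0.53 ± 0.32 (SE, limma FDR = 0.381), and it was 0.90 without TI2 and 0.16 without TI1, so that its size rests on which TI library is used. With an FPKM of 30.9 and 26.4 in FI against 17.3 and 22.5 in TI, sbe1, which encodes branching enzyme I, came next. FI averaged 28.6 ± 3.17 and TI 19.9 ± 3.66 (SD, n = 2), from 1213, 927, 518 and 545 fragments. The tissues did not overlap, and its log2FC was 0.51 ± 0.24 (SE, limma FDR = 0.309), 0.33 without TI1 and 0.69 without TI2.

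The endosperm branching enzyme gene ae1, which encodes branching enzyme IIb, had the lowest FPKM of the 6 genes in both tissues and the largest log2FC between them. FPKM was 5.10 and 5.66 in FI, 1.69 in TI1 and 3.53 in TI2. Both TI libraries lay below both FI libraries, and the TI libraries differed from each other by more than the FI libraries. FI averaged 5.38 ± 0.395 and TI 2.61 ± 1.31 (SD, n = 2), from 131, 130, 33 and 56 fragments. The log2FC was 0.87 ± 0.33 (SE, limma FDR = 0.279). Without TI2 it was 1.25 with an FDR of 0.0256 by limma, a fit in which TI1 is assumed to vary like the FI libraries, and without TI1 it was 0.49 with an FDR of 0.375. The ratio of FPKM of sbe2a to that of ae1 was 16.1 and 15.3 in FI against 26.5 and 21.3 in TI1 and TI2. The ratio was thus higher in both TI libraries, although a two-sided exact permutation test of 2 libraries against 2 cannot give a p below 0.333. The ratio of sbe2a to sbe1 overlapped between tissues, with 2.66 and 3.27 in FI against 2.58 and 3.34 in TI. As ae1 and sbe2a are related in sequence, reads that match both could have been split between them, which the sources used here do not describe.

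The debranching enzyme gene su1 was the exception among the expressed genes. Its FPKM was 6.54 and 6.71 in FI, 3.83 in TI1 and 7.17 in TI2, so that the tissues overlapped. FI averaged 6.63 ± 0.119 and TI 5.50 ± 2.36 (SD, n = 2), from 157, 144, 70 and 106 fragments. The log2FC was 0.28 ± 0.32 (SE, limma FDR = 0.635). Without TI1 the direction turned, with a log2FC of −0.10, and without TI2 it was 0.66.

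The order of the levels was the same in both tissues, from sbe2a through sbe1, ss1, su2 and su1 to ae1. In FI the libraries of neighbours in this order did not overlap. In TI they overlapped between ss1 and su2 and between su2 and su1, although within each TI library the order was the same. Among the 19531 genes whose FPKM averaged 1 or more, sbe2a had a higher mean FPKM than 96.1%, sbe1 than 82.1%, ss1 than 60.2%, su2 than 49.1%, su1 than 37.9% and ae1 than 26.2%. The lengths over which fragments were counted, implied by the steps, ran from 2990 bases for su2 to 8629 bases for sbe1, and FPKM divides by these lengths.

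Taken over the whole group, the summed FPKM of the 8 genes was 150 and 148 in FI, 81.9 in TI1 and 127 in TI2. While this sum moved between libraries, its makeup varied by only a few percentage points. The 3 branching enzyme genes held 79.0% and 80.2% of it in FI and 77.7% and 79.5% in TI, with sbe2a alone at 55.0% and 58.5% in FI against 54.5% and 59.1% in TI. The starch synthase genes held 16.6% and 15.3% in FI against 17.6% and 14.8% in TI. The share of the 5 endosperm forms with FPKM was between 14.3% and 14.99% in all 4 libraries. Nearly all of it came from su2, su1 and ae1, as wx1 and bt1 were at or near 0. The log2FC was 0.87 ± 0.33 for ae1, 0.38 ± 0.21 for su2 and 0.28 ± 0.32 for su1 (SE). Whether these genes differ from each other was not tested.

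**Figure D2:**
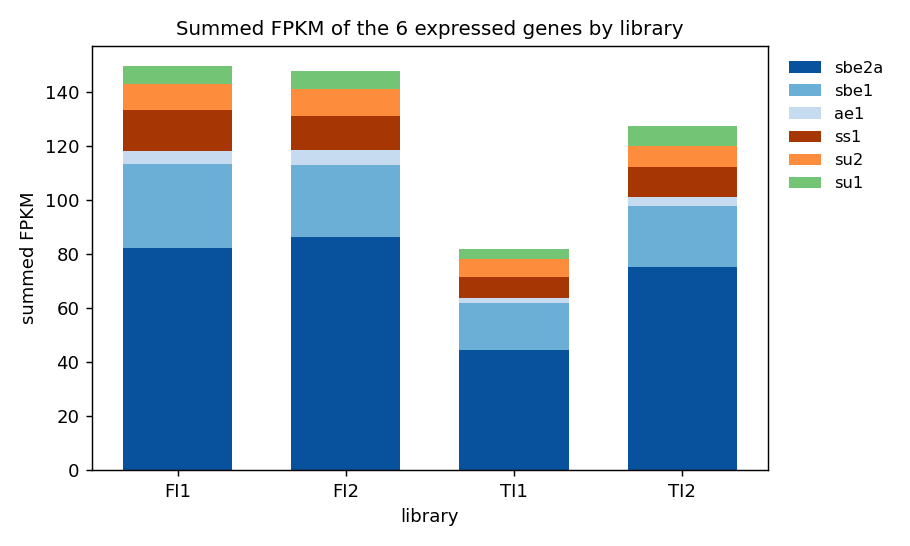
Summed FPKM (vertical axis, linear, from 0) of the 6 expressed genes in each library (horizontal axis), with 1 colour for each gene. The bar of TI1 is the lowest, at 81.9 for the group, and sbe2a makes up between 54.5% and 59.1% of each bar.

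Set against all genes, the differences between tissues in this group were in 1 direction, apart from su1 without TI1, but did not pass the test. None of the 6 genes tested passed an FDR of 0.05 in limma, and their unadjusted p was above 0.05 in 6 of 6. Among all 19531 genes, 0 (0%) passed that FDR, while the unadjusted p was under 0.05 in 3524 (18%), with 1718 (8.8%) of them higher in FI. In the 6 genes the FDR ran from 0.279 to 0.635. Their log2FC was positive in 6 of 6, with a median of 0.52, against a positive log2FC in 54.6% of all genes and a median of 0.06. Each FI value was above each TI value in 5 of the 6, a pattern found in 33% of all genes whose FPKM averaged 1 or more. The opposite pattern was found in 27.5% of these genes and in 0 of the 6. The 9 genes were chosen with earlier results of these data known.

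These counts leaned on TI1, which was the lowest library in 6 of 6 genes and in 42.8% of all genes tested. Without it the median log2FC of the 6 genes was 0.29, with 5 of 6 positive and FDR from 0.375 to 0.869 by limma. Without TI2 the median was 0.72, the FDR ran from 0.0256 to 0.188 by limma, and only ae1 passed. With that library left out, 4985 of all 19531 genes passed, with a median log2FC over all genes of 0.09. From TI1 towards the FI mean, FPKM in TI2 lay 50.5% of the distance for ss1, 44.7% for su2, 50.1% for ae1, 45.8% for sbe1 and 77.0% for sbe2a, and past the FI mean for su1 at 119%. For the 6447 genes with both FI libraries above both TI libraries, the median was 43.6%, with quartiles of 22.5% and 58.1%. The part that inflorescence RNA or reads in TI2 may have in these values was not tested.

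**Figure D3:**
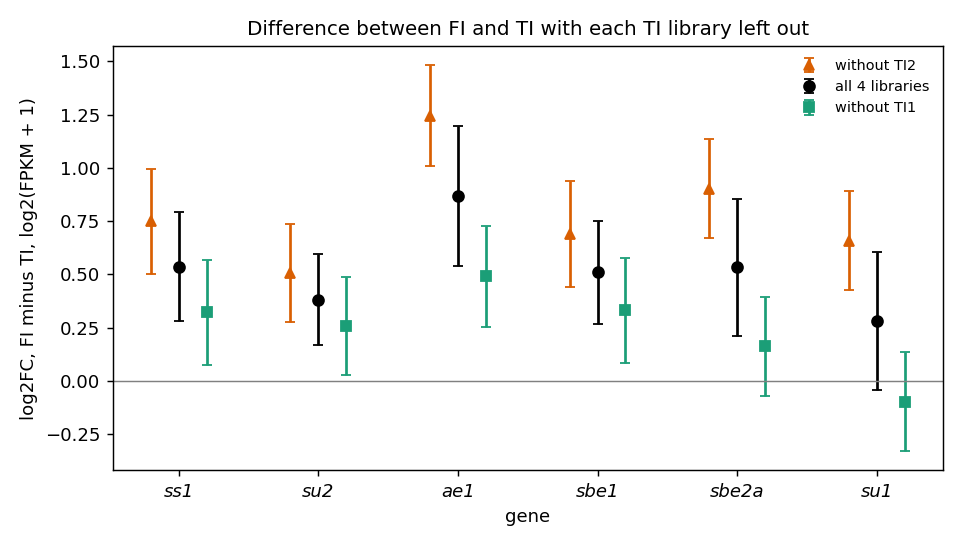
Log2FC between FI and TI on the log2(FPKM + 1) scale (vertical axis, positive where FI is higher) for each of the 6 genes (horizontal axis), with all 4 libraries and with either TI library left out; bars are standard errors from limma. With TI1 left out all 6 values are smaller and su1 lies at −0.10, and with TI2 left out ae1 reaches 1.25.

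On the fragments recovered from FPKM, edgeR's quasi-likelihood test gave a median log2FC of 0.48 for the 6 genes, from 0.24 for su1 to 1.02 for ae1, with FDR from 0.288 to 0.681. No gene of 18026 (0%) passed an FDR of 0.05 here, although the unadjusted p was under 0.05 in 3123 (17.3%), with 1103 (6.12%) of them higher in FI. By edgeR's exact test 903 genes passed, with 0 of the 6 among them. In 0 of the 6 genes was the unadjusted p under 0.05 by the quasi-likelihood test, while their log2FC was positive in 6 of 6, as in 52% of all genes. Without TI2, ae1 had an FDR of 0.00305, sbe2a of 0.0170 and ss1 of 0.0336 by the same test on fragments, a setting in which 6240 of 19175 genes passed. Without TI1, 242 of 18833 genes passed and 0 of the 6, with FDR of 0.323 for ae1, 0.792 for sbe2a and 0.523 for ss1.

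The deposited raw counts, made per transcript on the earlier version 3 gene models and summed to genes here, could be paired with 4 of these 6 genes. They gave positive log2FC as well. In ss1, 602 and 398 counts in FI against 276 and 240 in TI came to a log2FC of 0.43 ± 0.23 (SE, edgeR FDR = 0.389), 0.41 without TI1 and 0.50 without TI2. For su2 there were 120 and 87 counts in FI against 55 and 62 in TI, and the log2FC was 0.29 ± 0.30 (SE, edgeR FDR = 0.635), 0.0952 without TI1 and 0.56 without TI2. Scaled to depth, su2 had 49.4 and 41.98 CPM in FI against 30.3 and 42.6 in TI, so that the tissues, apart on FPKM, overlapped on counts. Counts of ae1 were 360 and 376 in FI against 92 and 168 in TI, and the log2FC was 0.95 ± 0.40 (SE, edgeR FDR = 0.328). Without TI2 it was 1.66 with an FDR of 0.000681 by edgeR, where 4072 of 17106 gene models passed, and without TI1 it was 0.50 with an FDR of 0.423. The gene sbe1 is spread over 2 gene models in version 3, GRMZM2G088737 with 273, 250, 162 and 147 counts and GRMZM2G088753 with 53, 29, 13 and 24 counts in FI1, FI2, TI1 and TI2. Their log2FC was 0.24 and 0.59 (edgeR FDR = 0.542 and 0.582). In CPM the latter overlapped between tissues, at 21.8 and 14.0 in FI against 7.15 and 16.5 in TI, and its log2FC was 0.12 without TI1 and 1.29 without TI2. All 5 gene models had a positive log2FC, which 49.9% of all 15479 gene models had, and in 0 of the 5 was the unadjusted p under 0.05. Over all of them 0 (0%) passed an FDR of 0.05, and the unadjusted p was under 0.05 in 2443 (15.8%), with 946 (6.11%) of these higher in FI. By DESeq2 319 gene models passed and by edgeR's exact test 719, and 0 of the 5 were among them.

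The tables of counts and FPKM differed in how much signal they gave to a gene. Summed over the 4 libraries, counts of all genes came to 62.0% of the fragments behind the FPKM values. For su2 this share was 83.9% and for ss1 127%, but for ae1 it was 285%, with 996 counts against 350 fragments, and for sbe1 29.7%, with 951 counts against 3203 fragments. For su2 there were 324 counts. The place of ae1 in the order of the levels therefore depends on the table, as it had fewer fragments than sbe1 and su2 but more counts than both. The distance between sbe2a and ae1 was seen on FPKM only, as no counts could be paired with sbe2a. Neither counts nor fragments are scaled by length. Whether a count is a read or a pair of reads is not given in the sources used here.

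The AGPase genes, which supply the ADP-glucose that the synthases use, differed in which tissue was higher, also between genes of the same subunit. Of 6 AGPase genes with FPKM, 2 were higher in both FI libraries (33% of all genes) and 3 in both TI libraries (27.5% of all genes), and 0 of the 6 passed an FDR of 0.05 in limma. An unadjusted p under 0.05 was found for 3 (18% of all genes), namely agpsemzm, agpl3 and agpllzm. By edgeR's exact test on fragments agpllzm passed, at a log2FC of −2.10 and an FDR of 0.00595. The small subunit gene agpsemzm had an FPKM of 164 and 153 in FI against 48.1 and 103 in TI, and its log2FC was 1.16 ± 0.42 (SE, limma FDR = 0.276), 0.62 without TI1 and 1.70 without TI2. By contrast bt2, the small subunit gene of the endosperm, had 13.2 and 16.3 in FI against 24.5 and 20.1 in TI, and its log2FC was −0.56 ± 0.24 (SE, limma FDR = 0.289), −0.42 without TI1 and −0.70 without TI2. The ratio of agpsemzm to bt2 was 12.4 and 9.41 in FI against 1.96 and 5.12 in TI. In the count table agpsemzm had only 2, 2, 0 and 1 counts in FI1, FI2, TI1 and TI2. Its counts came to 0.114% of its fragments and those of bt2 to 12.5%, against 62.0% over all genes. The high level of agpsemzm and its ratio to bt2 were thus seen on FPKM only.

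Of the large subunit genes, agpl3 had an FPKM of 14.2 and 12.9 in FI against 1.99 and 7.37 in TI, and its log2FC was 1.54 ± 0.55 (SE, limma FDR = 0.276), 0.80 without TI1 and 2.28 without TI2. For agpllzm, a large subunit gene of the leaf, the order was the opposite, with an FPKM of 4.70 and 4.59 in FI against 26.2 and 12.5 in TI, and its log2FC was −1.76 ± 0.40 (SE, limma FDR = 0.241), −1.26 without TI1 and −2.27 without TI2. FPKM of agplemzm overlapped between tissues, at 64.0 and 49.4 in FI against 60.0 and 58.5 in TI. The large subunit gene of the endosperm, sh2, was added here after its values were seen, and had an FPKM of 3.53 and 3.66 in FI against 5.38 and 3.98 in TI, and its log2FC was −0.29 ± 0.23 (SE, limma FDR = 0.489), −0.12 without TI1 and −0.47 without TI2. Without TI2, agpl3, agpsemzm and agpllzm had FDR of 0.00668, 0.0118 and 0.00644 by limma, where 4985 of 19531 genes passed, and without TI1 their FDR was 0.223, 0.287 and 0.172. In contrast to wx1 and bt1, both endosperm subunit genes of AGPase were thus detected in every library, and on FPKM the higher values of both lay in TI. The log2FC of agplemzm, on FPKM, turned with the library left out. Counts came to 393% of the fragments of agpl3, 18.7% of those of sh2, 4.97% of those of agplemzm and 3.02% of those of agpllzm. With 1, 2, 2 and 6 counts in FI1, FI2, TI1 and TI2, agpllzm was not tested in the main comparison of counts. Without a filter its log2FC on counts was −1.82 (SE 1.35, edgeR FDR = 0.596). Within the deposited data the difference in agpllzm thus rests on FPKM and the fragments behind it. Why the tables differ was not tested.

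**Figure D4:**
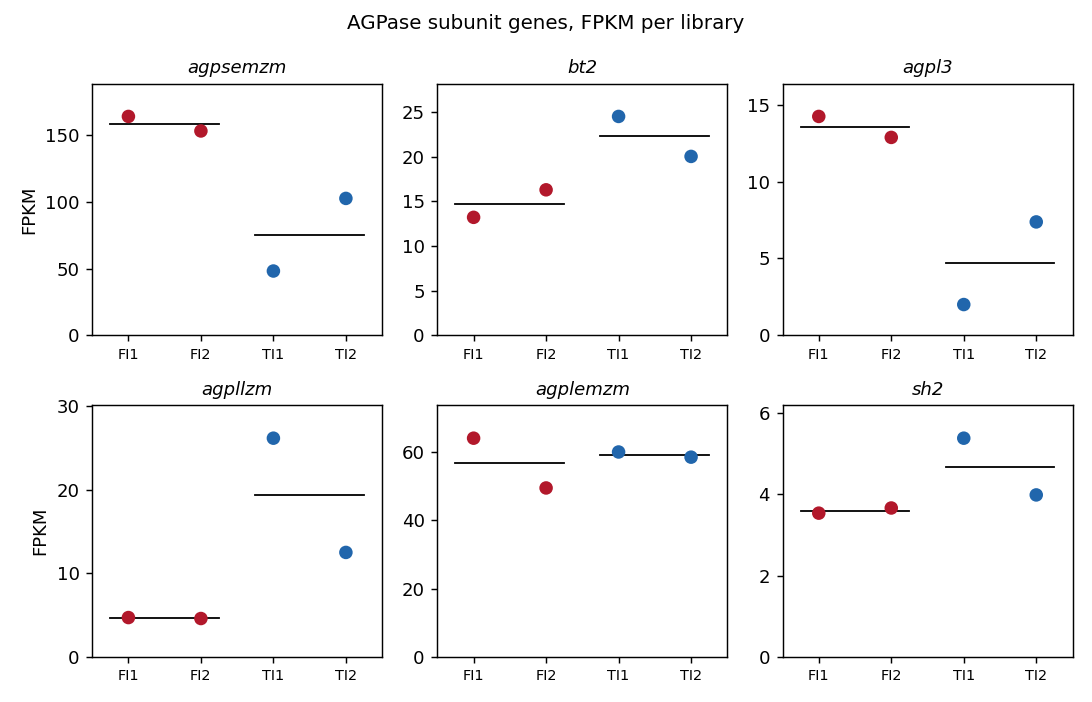
FPKM (vertical axis, linear, from 0; the scale differs between panels) of 6 AGPase subunit genes in each library (horizontal axis; red, FI; blue, TI), with a black line at the mean of a tissue. The small subunit genes agpsemzm and bt2 lie in opposite order, at 164 and 153 in FI against 48.1 and 103 in TI for the former and at 13.2 and 16.3 in FI against 24.5 and 20.1 in TI for the latter.

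The other starch synthase, branching and debranching genes were measured by counts alone, and of 6 names looked for, 5 could be tested. All 5 are named here whatever their values. In edgeR 0 of 5 passed an FDR of 0.05, the unadjusted p was under 0.05 in 0 of 5, and 3 of 5 had a positive log2FC, with a median of 0.19. GBSSIIa, the granule-bound synthase gene of vegetative tissues, had 75 and 114 counts in FI against 40 and 45 in TI, or 30.8, 55.0, 22.0 and 30.9 CPM. TI2 and FI1 were thus level, and the log2FC was 0.64 (SE 0.38, edgeR FDR = 0.424), 0.45 without TI1 and 0.92 without TI2. Transcript of a granule-bound synthase gene was thus counted in all 4 libraries, while wx1, on FPKM, was above 0 in FI1 only. The measures differ, as no counts were listed for wx1 and GBSSIIa was measured by counts alone. The counts were 88, 92, 63 and 85 for sbe3, 70, 92, 72 and 46 for the isoamylase gene iso2, 54, 51, 29 and 35 for the isoamylase gene iso3 and 11, 18, 8 and 9 for the pullulanase gene zpu1, in FI1, FI2, TI1 and TI2. The edgeR FDR of these 4 genes ran from 0.720 to 0.975.

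Of 8 names of starch breakdown genes looked for, 1 had counts, and the others could not be paired with a gene model. The counted gene is the beta-amylase gene amyb5, which encodes an enzyme that releases maltose from glucan chains. It had 182 and 180 counts in FI, 5 in TI1 and 53 in TI2. Counts of FI were far above those of TI, in which the libraries themselves lay far apart. The log2FC was 2.05 (SE 0.97, edgeR FDR = 0.359), 4.81 without TI2 and 1.14 without TI1. Of 6 names of factors known to act on starch genes in the endosperm, 2 had counts. The gene model paired with o2 had no counts listed. The names bzip91, nac128 and nac130 could not be paired with a gene model, so they were not measured here. For pbf1 there were 64 and 61 counts in FI against 58 and 52 in TI, and ereb156 had 6 and 5 in FI against 2 and 3 in TI. The name pbf1 was paired with the gene models GRMZM2G146267, which holds these counts, and GRMZM2G146283, which has none listed. Which of these models is the endosperm factor was not tested. The log2FC of pbf1 was −0.33 (SE 0.28, edgeR FDR = 0.553), and that of ereb156, which was below the filter, was 0.63 with an FDR of 0.812 in edgeR without a filter.

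The genes nearest to sbe2a, the most abundant of the 9 genes, were found by the Euclidean distance in log2(FPKM + 1) over the 4 libraries. They were Zm00001d051427, Zm00001d006439 and Zm00001d009795, at distances of 0.211, 0.232 and 0.239. Zm00001d051427 had an FPKM of 94.7 and 83.7 in FI against 43.6 and 73.9 in TI. The distance measures level and pattern together, and with 4 libraries it is a description only.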

How the data were processed

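RNA of FI and TI was sequenced as paired-end reads, with 2 libraries of each tissue. The authors deposited FPKM per gene, made with CLC Genomics Workbench on B73 RefGen_v4, and raw counts per version 3 transcript, made after Trimmomatic and TopHat2 2.0.13; the counting tool is not given in the sources used here. The processing notes name B73 RefGen_v3. The count columns called floral stem were taken as FI, the only floral tissue of the series. Columns of the authors' own fold changes, p-values and FDR were not used.

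Genes whose FPKM averaged at least 1 over the 4 libraries entered limma 3.58.1 as log2(FPKM + 1). Counts were summed to 26167 gene models, kept by filterByExpr (minimum count 10, total 15), scaled by TMM and tested by quasi-likelihood (edgeR 4.0.16, R 4.3.3), with standard errors derived from F. FDR is Benjamini-Hochberg over all genes tested, and the tissue was the only term. Total counts were between 1455729 and 2431447 a library. Fragments were recovered as the whole multiples of each gene's smallest step in FPKM (tolerance 1e-06), with 1973 genes above 0 in 1 library only set to 1 fragment. A shared divisor of the 4 values would lower a gene's fragments and leave its ratios as they are. DESeq2 1.42.0 and the other alternatives were run as listed in the closing section, and limma, edgeR, DESeq2 and the recovery of fragments were tested on simulated data.

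The 9 genes and the lists were chosen with earlier results of these data known. Named beside them were AGPase genes whose FPKM averaged at least 10 or an unadjusted p under 0.05, and the 3 genes nearest to the most abundant of the 9. Gene names were paired with version 3 models through RefSeq's gene table of Zm-B73-REFERENCE-NAM-5.0, which paired 7 of the 9 genes, 5 of them with counts; ae1 was taken as the model also named SBEIIb. Coordinates and sequences were not used here.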

Additional observations from a re-analysis of the deposited data

How the results depend on the processing

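The 6 starch genes kept a positive log2FC on FPKM, and no FDR under 0.05, with a pseudocount of 0.1, without a filter, with a mean FPKM of at least 5 (ae1 then was not tested), with upper quartile or TMM scaling, with the trend in limma, with the replicate block and on recovered fragments. Upper quartile scaling moved the median log2FC of all genes from 0.06 to 0.01. With 1 library left out, the log2FC ran from 0.49 to 1.25 for ae1, 0.32 to 0.75 for ss1, 0.26 to 0.51 for su2, 0.33 to 0.69 for sbe1, 0.16 to 0.90 for sbe2a and −0.10 to 0.66 for su1, and on fragments −0.14 to 0.73 for su1. The number of genes with an FDR under 0.05 ran from 0 to 4985 on FPKM and from 0 to 4072 on counts when 1 library was left out, with 4985 and 4072 without TI2, and 410 on counts without TI1. On recovered fragments it was 6240 without TI2 and 242 without TI1. On counts it was 319 by DESeq2, 719 by edgeR's exact test and 477 without a filter, against 0 in the main test and 0 on transcripts as deposited. On recovered fragments 903 genes passed by the exact test, and none of the 6 starch genes.

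Samples with the same replicate number deviated together by a correlation of 0.174 on FPKM and 0.158 on counts, over 2 pairs, which is too few to say that the numbers pair the samples. With the replicate block, 0 genes passed on FPKM and 0 on counts, and the log2FC of ae1 was 0.87 with an FDR of 0.250 by limma; the block changed no call.

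Among the other starch genes the direction was not fixed for some. With 1 library left out, the log2FC of agplemzm ran from −0.26 to 0.11 on FPKM and from −0.42 to 0.00689 on counts, and on counts that of bt2 ran from −0.50 to 0.49, of iso2 from −0.32 to 0.23, of iso3 from −0.0494 to 0.51, of sbe3 from −0.55 to 0.18 and of zpu1 from −0.22 to 0.64. That of iso2 on counts was −0.03, and 0.0171 with DESeq2's size factors, 0.0195 by DESeq2 and 0.0183 without a filter. The cause was not tested. The fits that leave out a library and the block on recovered fragments were added after seeing the data. Depth limits what can be said of du1, wx1 and bt1, and a motif search in promoters was not run.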
